A study of Mus musculus with 3 samples.

Results

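Gamma-delta T cells were taken from 3 droplet-based single-cell RNA libraries of mouse PBMCs (peripheral blood mononuclear cells) as the barcodes that met a rule on raw UMI counts. A UMI (unique molecular identifier) counts 1 captured RNA molecule. A barcode had to show at least 200 genes, at most 7.5% mitochondrial UMIs and under 20% UMIs of haemoglobin genes. It also had to hold at least 2 UMIs summed over Cd3d, Cd3e and Cd3g, the chains through which every T cell receptor signals, and at least 1 UMI of Trdc, the constant region of the delta chain. Barcodes with a UMI of Cd4, Cd8a, Cd8b1 or Ncr1 (a receptor of NK cells) or with more than 1 UMI summed over Cd79a and Cd79b (the B-cell receptor signaling chains) were left out. The members were thus chosen by their Cd3, Trdc, Cd4, Cd8, Ncr1 and Cd79 UMIs, and levels of those genes are a description only. The rule found 249 barcodes among the 28333 that passed the quality limits, of 44212 in all, and these are called gamma-delta barcodes.

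Of these, 129 came from the young library, 41 from the aged library and 79 from the aged-GA library. All mice were female C57BL/6. The young mice were 8 weeks old and the aged mice 16 months old. The aged-GA mice were also 16 months old and had received glycyrrhizic acid (GA), a saponin of licorice root, for 1 month. By the methods of the study GA was injected into the tail vein, and control mice received PBS the same way. The labels give no treatment for the young and aged libraries. The study describes several mice per group for this experiment, and with 1 library per group a library then holds cells of more than 1 mouse, with no map from barcodes to mice used here. A difference between libraries therefore cannot be told apart from a difference between groups, and no test was run between libraries.

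The gamma-delta barcodes held 630270 UMIs in the young, 187824 in the aged and 426622 in the aged-GA library, and their median barcode held 4336, 4259 and 5168 UMIs. All barcodes within the quality limits held 42021745, 44277264 and 59921959 UMIs. The median share of mitochondrial UMIs in gamma-delta barcodes was 4.74% in the young, 2.79% in the aged and 4.07% in the aged-GA library. Between 18 and 28 barcode sequences within the quality limits were shared by any pair of libraries, and 0 gamma-delta barcodes were. The aged library holds the fewest gamma-delta barcodes and UMIs, so its gamma-delta values are the least precise.

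Most T cells in blood recognise peptides through a receptor of alpha and beta chains. Gamma-delta T cells instead carry a receptor of a gamma and a delta chain, most of them lack CD4 and CD8, and many respond without a classical peptide ligand. In mice they are commonly divided into a type 1 program, marked by CD27, NK-cell receptors and interferon gamma, and a type 17 program, marked by the IL-23 receptor and IL-17A. The gamma chain of the mouse has several constant genes, which lie in 1 cluster on chromosome 13, and the delta genes lie inside the alpha locus on chromosome 14.

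The receptor genes on which the check of the label rests are given first. In the GRCm38 (mm10) build with the GENCODE vM21 annotation, Trdc lies at chr14:54142851-54148868 on the plus strand and Trac, the constant region of the alpha chain, at chr14:54220521-54224206 on the plus strand. Tcrg-C1 lies at chr13:19214103-19217024 (plus strand), Tcrg-C3 at chr13:19260884-19263528 (plus strand), Tcrg-C2 at chr13:19304649-19307551 (minus strand) and Tcrg-C4 at chr13:19344558-19352756 (plus strand). The first 60 coding bases of each gamma constant gene, read 5′ to 3′ on the strand of the gene, show how alike these genes are, with the bases that differ from Tcrg-C1 in capitals.
Tcrg-C1: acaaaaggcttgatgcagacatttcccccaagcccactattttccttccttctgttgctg
Tcrg-C2: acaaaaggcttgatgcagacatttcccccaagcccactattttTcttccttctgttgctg
Tcrg-C3: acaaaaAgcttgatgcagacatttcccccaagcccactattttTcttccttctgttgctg
Tcrg-C4: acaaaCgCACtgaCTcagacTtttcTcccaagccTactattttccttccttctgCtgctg
Tcrg-C2 differs from Tcrg-C1 at 1 of these positions, Tcrg-C3 at 2 and Tcrg-C4 at 10. Over the aligned coding sequence Tcrg-C1 and Tcrg-C2 are 97.4% identical and Tcrg-C1 and Tcrg-C4 78.7%. The libraries were made with a 3′ kit, which reads the ends of transcripts. There, over the last 300 bases of the annotated transcripts, Tcrg-C1 and Tcrg-C2 are 93.9% identical (278 of 296 aligned bases) and Tcrg-C1 and Tcrg-C4 60.1% (170 of 283). Whether UMIs of Tcrg-C1, Tcrg-C2 and Tcrg-C3 were split among these genes or lost as ambiguous when the reads were counted was not tested, so their separate levels are uncertain, while Tcrg-C4 stands further apart. Tcrg-C3 had 0, 0 and 3 UMIs in the gamma-delta barcodes.

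The label was checked against the gamma constant genes and Trac, none of which the rule used. A UMI of Tcrg-C1, Tcrg-C2, Tcrg-C3 or Tcrg-C4 was found in 46.5% of the gamma-delta barcodes of the young, 63.4% of the aged and 74.7% of the aged-GA library. Trac was found in 52.7%, 31.7% and 27.8%. Of all 249 members, 79 had exactly 1 Trdc UMI, and they made up 42.6% of the young (55 of 129), 22% of the aged (9 of 41) and 19.0% of the aged-GA members (15 of 79). These 79 barcodes carried a gamma constant UMI in 12.7% and Trac in 67.1%, which lies nearer to the 3445 T barcodes without Trdc, Cd4 and CD8 (4.09% and 85.6%) than to the members with 5 or more Trdc UMIs. The 64 members with 2 to 4 Trdc UMIs carried a gamma constant UMI in 60.9% and Trac in 37.5%, and the 106 members with 5 or more in 90.6% and 24.5%. The receptor genes thus go with the label for most of the 170 members with 2 or more Trdc UMIs, and against it for most of the 79 with 1. Results below use all 249 members. Among the genes of the lists, calls that differ when only the 170 are used number 1 gained and 1 lost against CD8+ T, 12 gained and 0 lost against CD4+ T and 1 gained and 11 lost against NK barcodes in the edgeR comparisons below, and a part of these is named there.

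**Figure D1:**
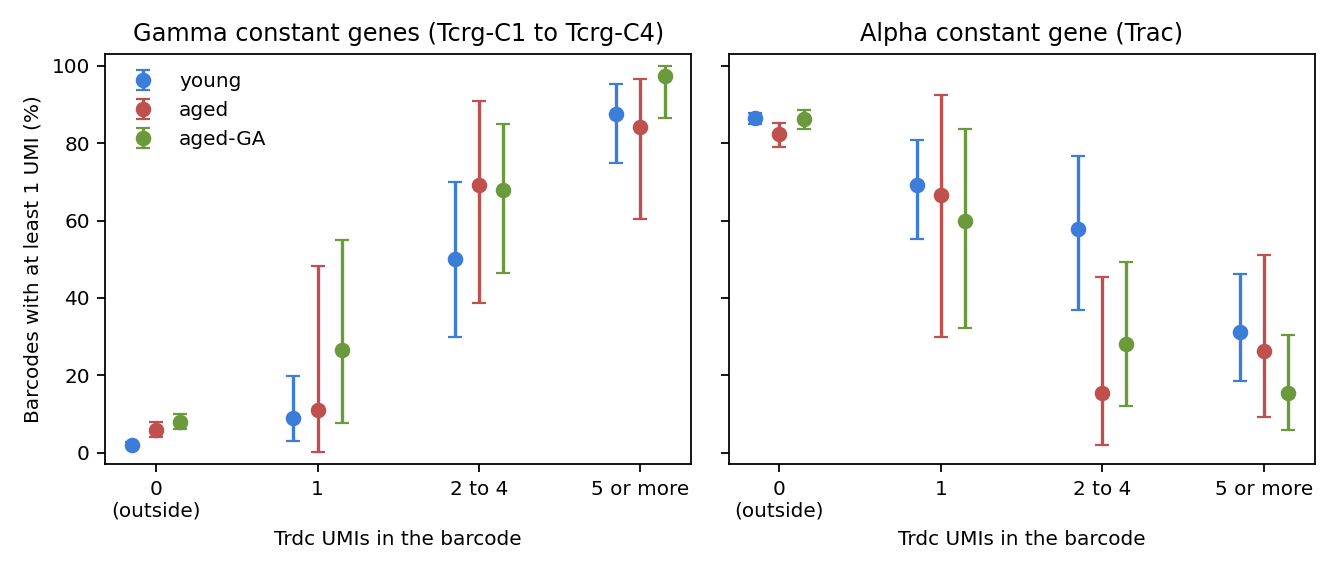
Share of barcodes (%) with at least 1 UMI of a gamma constant gene and of Trac, by the number of Trdc UMIs in the barcode, for the 3 libraries, with 95% exact binomial intervals (counting error only). The first position on the x axis holds T barcodes outside the rule, without Trdc, Cd4 and CD8. In each library the gamma constant share is higher and the Trac share lower at 5 or more Trdc UMIs than at 1.

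Within each library the same order held. At 1 Trdc UMI the gamma constant share was 9.09% (95% exact binomial interval 3.02 to 20) in the young, 11.1% (0.281 to 48.2) in the aged and 26.7% (7.79 to 55.1) in the aged-GA library. At 2 or more it was 74.3% (62.8 to 83.8), 78.1% (60 to 90.7) and 85.9% (75 to 93.4). These intervals and all others cover counting error only. In B barcodes, which should lack Trdc, 0 of 2147 barcodes held a Trdc UMI in the young library. A limit of 3 counts allows a share of up to 0.14% there, and the 95% exact binomial interval reaches 0.172%. In the aged and aged-GA libraries 2 of 3966 and 6 of 4844 B barcodes held one. Median depths of B barcodes were 3383, 3088 and 3747 UMIs in the 3 libraries. Barcodes with CD8 UMIs that met the limits of the CD8+ T class apart from the one on Trdc held Trdc in 3.02%, 2.76% and 2.09%, and NK barcodes in 15.4%, 12.7% and 12.3%, so Trdc reads also occurred in lymphocytes outside the rule. At the edge of the CD3 limit stood few barcodes: 1, 2 and 1 members had a Cd3 sum of exactly 2, and 1, 1 and 2 barcodes failed the rule only by a sum of 1.

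The delta chain itself, which the rule used, is given as a description. The level of Trdc was 987 CPM in the young, 964 in the aged and 1055 in the aged-GA library, where CPM is UMIs of a gene per 1000000 UMIs of the summed barcodes. The median member held 2 Trdc UMIs in the young library and 4 in each of the other two. Members with 10 or more Trdc UMIs numbered 24, 0 and 17, and the highest held 27, 9 and 17 UMIs.

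The share of gamma-delta barcodes was lower in both aged libraries than in the young one when counted over all barcodes within the quality limits, and close to it when counted over T cells alone. They made up 1.54% (95% exact binomial interval 1.29 to 1.83) of barcodes in the young library, 0.449% (0.322 to 0.608) in the aged and 0.729% (0.577 to 0.907) in the aged-GA library. Of the barcodes with at least 2 Cd3 UMIs they made up 2.45% (2.05 to 2.90), 1.91% (1.37 to 2.58) and 2.31% (1.83 to 2.86), and these intervals overlap. CD3 barcodes themselves numbered 5275 of 8354, 2147 of 9136 and 3427 of 10843. The order over CD3 barcodes turned with the stringency of the rule. With 2 or more Trdc UMIs the shares were 1.40% in the young, 1.49% in the aged and 1.87% in the aged-GA library, and with a gamma constant UMI required they were 1.14%, 1.21% and 1.72%. After each barcode was thinned to 2000 UMIs the shares over CD3 barcodes were 2.31%, 2.0% and 2.15%.

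**Figure D2:**
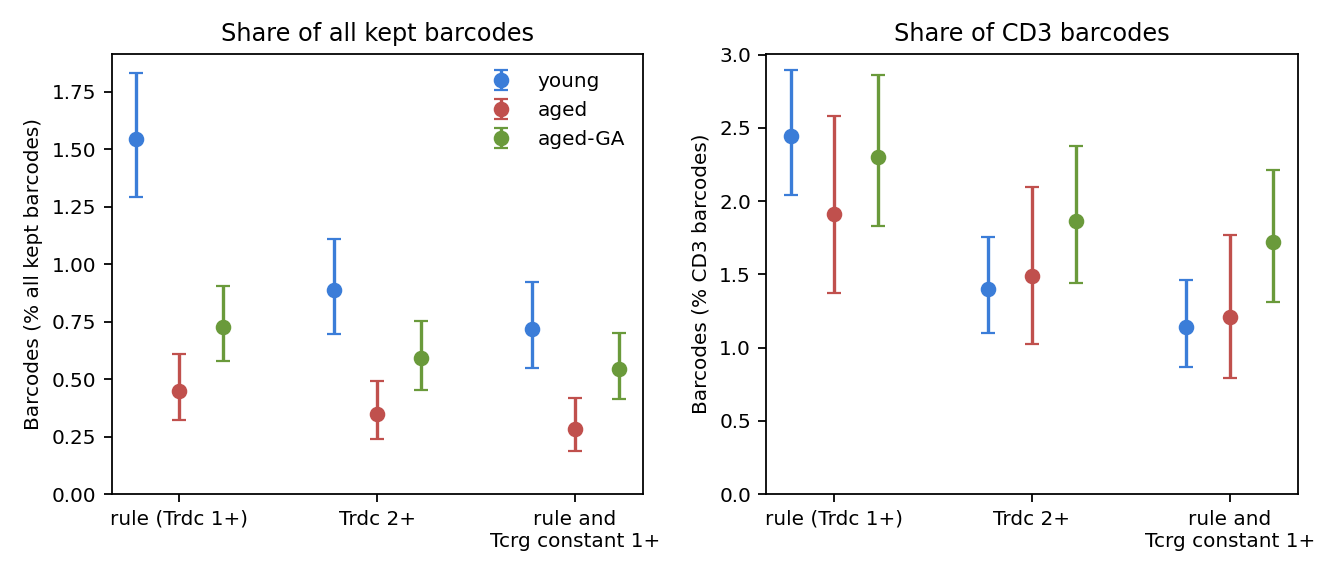
Gamma-delta barcodes as a share (%) of all barcodes within the quality limits and of CD3 barcodes, for the rule, for members with 2 or more Trdc UMIs and for members with a gamma constant UMI, with 95% exact binomial intervals. Over all barcodes the young library is highest under each definition (1.54% by the rule), whereas over CD3 barcodes the aged-GA library is highest under the stricter definitions (1.87% and 1.72%).

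To find which genes set gamma-delta barcodes apart within the same libraries, their summed UMIs were compared with those of 3 other classes: CD8+ T barcodes (1926, 845 and 1642 in the young, aged and aged-GA library), CD4+ T barcodes (985, 546 and 729) and NK barcodes (240, 221 and 227). The T classes met the same limits on quality, CD3, Ncr1 and Cd79 but had a CD8 or a Cd4 UMI and no Trdc UMI, and NK barcodes had an Ncr1 UMI and at most 1 Cd3 UMI. edgeR's quasi-likelihood test was fitted to 12 sums, of gamma-delta barcodes and these 3 classes, with the library as a block. Fold changes below are log2 values of that fit with their standard errors (SE), and adjusted p is from edgeR with Benjamini-Hochberg adjustment over 9180 genes. The p-values measure the spread among 3 libraries that belong to 3 different groups. Against CD8+ T barcodes 78 genes (0.85%) were higher and 32 (0.349%) lower in gamma-delta barcodes, against CD4+ T barcodes 134 (1.46%) and 58 (0.632%), and against NK barcodes 891 (9.71%) and 847 (9.23%). In either direction these are 110 genes (1.2%), 192 (2.09%) and 1738 (18.9%). The median log2 fold change over all genes was -0.02, -0.02 and -0.01. Without the aged library the counts against CD8+ T barcodes were 29 higher and 4 lower, and without the aged-GA library 25 and 1. Against CD4+ T barcodes they were 49 and 8 without the aged and 29 and 5 without the aged-GA library, and 174 and 173 without the young library. Lower calls against CD8+ T barcodes numbered 74 without the young library, and against NK barcodes 329 genes were lower and 482 higher without the aged-GA library and 509 lower without the aged library.

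Tcrg-C1, Tcrg-C2 and Tcrg-C4 were higher in gamma-delta barcodes than in CD8+ T, CD4+ T and NK barcodes, and Tcrg-C3 was not tested. Tcrg-C1 stood at 165, 133 and 150.0 CPM in the young, aged and aged-GA gamma-delta barcodes and at 1.51, 2.02 and 2.49 CPM in CD8+ T barcodes. The ranges do not overlap, and the log2 fold change was 6.01 (SE 0.36, edgeR adjusted p = 5.55e-07). Tcrg-C4 stood at 88.9, 149 and 152 CPM against 0.923, 6.47 and 2.98 CPM in CD8+ T barcodes, a log2 fold change of 5.29 (SE 0.30, edgeR adjusted p = 5.55e-07). Tcrg-C2 was at 146, 149 and 148 CPM against 2.10, 16.0 and 11.8 CPM, a log2 fold change of 4.06 (SE 0.43, edgeR adjusted p = 0.000321). In CD8+ T barcodes Tcrg-C2 and Tcrg-C4 were thus at higher CPM in both aged libraries than in the young one. Tcrg-C1 levels lay close together there, and the young one rests on 18 UMIs. Gamma-delta barcodes stayed above CD8+ T barcodes in all 3 libraries for each of these genes. Against CD4+ T barcodes the log2 fold changes of Tcrg-C1, Tcrg-C2 and Tcrg-C4 were 6.56, 6.37 and 6.82. NK barcodes held 0 UMIs of Tcrg-C2, so that it was at least 127-fold higher in gamma-delta barcodes.

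Gene segments that encode the variable part of the receptor were found in fewer barcodes. Trgv2, a gamma variable segment that lies between Tcrg-C2 and Tcrg-C4 at chr13:19336573-19337167 on the minus strand, had 113, 128 and 75 CPM in the 3 gamma-delta sums and 2.27, 10.5 and 7.13 CPM in CD8+ T barcodes (log2 fold change 4.0, SE 0.41, edgeR adjusted p = 0.000289). Trdv4, a delta variable segment at chr14:54074905-54075515 on the plus strand, had 55.5, 26.6 and 23.4 CPM, 50 UMIs in all, against 1 UMI in CD8+ T barcodes, a ratio of 1162 with a counting interval of 199 to 46796. NK barcodes also held Trdv4, and there the log2 fold change of 0.86 did not pass the test (edgeR adjusted p = 0.228). Tcrg-V4 had 13, 3 and 3 UMIs, Tcrg-V6 5, 0 and 2, Tcrg-V1 7, 4 and 11, Tcrg-V3 3, 1 and 2, and Tcrg-V5 1, 0 and 0. Trdv2-2 had 21, 2 and 6 UMIs, Trdv5 6, 6 and 3, and Trdv1 6, 4 and 1. At these counts an order among the 3 libraries was not detectable for most segments.

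Of the alpha and beta chain genes, Trac was lower against both T classes and the beta constant genes did not pass the test. Among the 170 members with 2 or more Trdc UMIs, Trbc2 was lower than in CD4+ T barcodes (log2 fold change -0.55, edgeR adjusted p = 0.0401), where all members had -0.44 (edgeR adjusted p = 0.131). Trac had 332, 149 and 108 CPM in gamma-delta and 453, 440 and 373 CPM in CD8+ T barcodes, a log2 fold change of -1.31 (SE 0.23, edgeR adjusted p = 0.0106). With only the members with 2 or more Trdc UMIs it was -2.37. Against CD4+ T barcodes it was -1.82 (SE 0.24, edgeR adjusted p = 0.000651). Trbc1 stood at 1173, 1358 and 1031 CPM and Trbc2 at 1850, 1209 and 1411 CPM in gamma-delta barcodes, so beta chain RNA was present in every library. The call of Trac was lost without the aged library against CD8+ T barcodes and without the aged-GA library against both T classes.

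**Figure D3:**
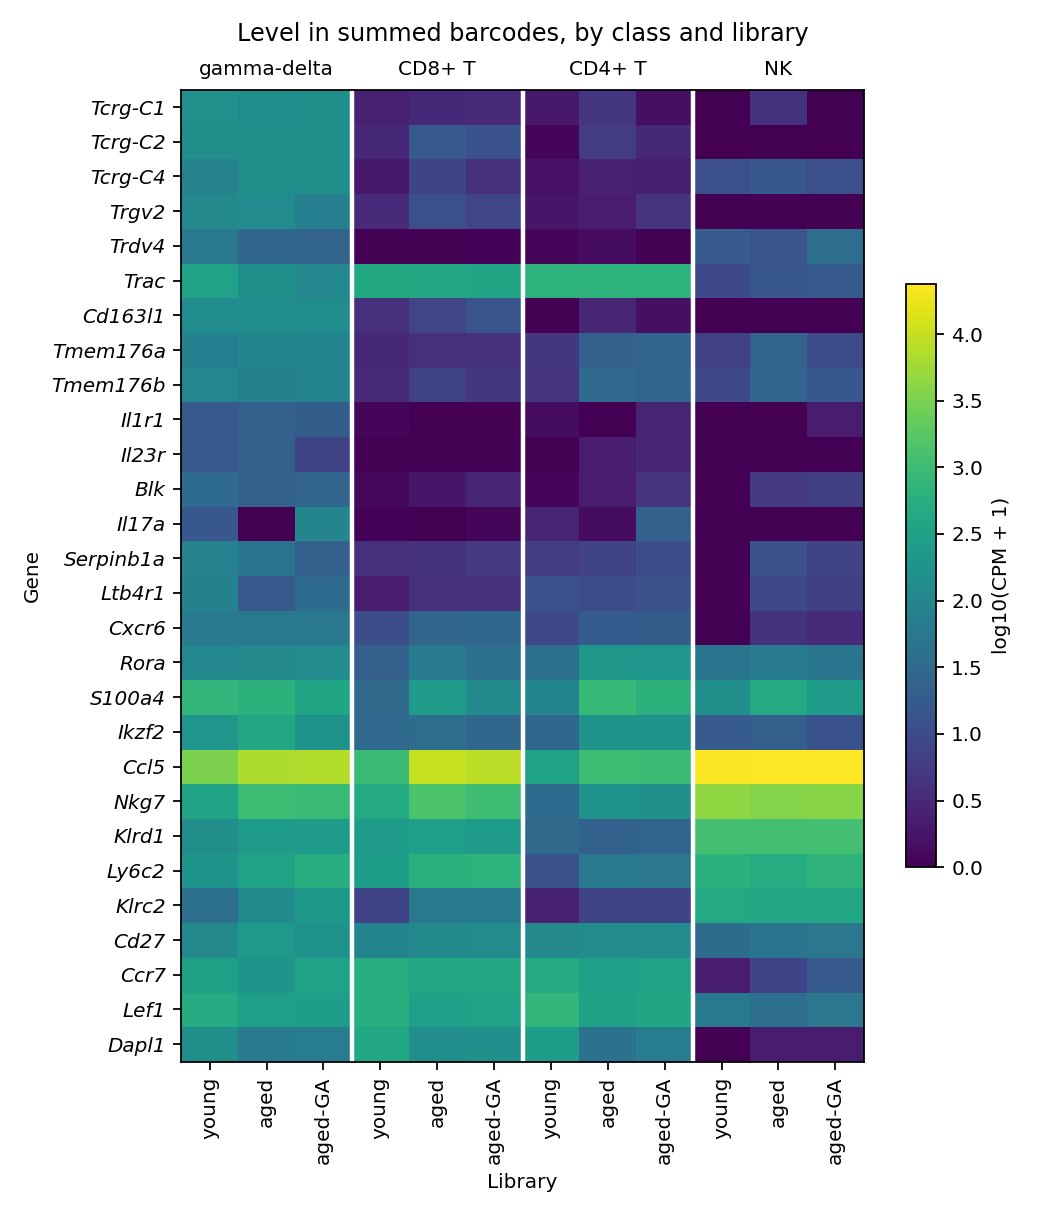
Level of 28 genes, as log10(CPM + 1) on the colour scale, in the summed gamma-delta, CD8+ T, CD4+ T and NK barcodes of the young, aged and aged-GA libraries. The gamma constant genes and Cd163l1 stand out in the gamma-delta columns of each library (Tcrg-C1 at 165, 133 and 150.0 CPM), while Ccl5 and Nkg7 are highest in the NK columns.

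Genes of the type 17 list were also higher in gamma-delta barcodes than in the other classes. Of 18 listed genes 14 were tested, and 13 were higher against CD8+ T barcodes (median log2 fold change 4.53), 11 against CD4+ T barcodes (3.03, and 12 among the 170 members with 2 or more Trdc UMIs) and 12 against NK barcodes (4.40, or 3.57 with genes absent from NK barcodes set at their bound). The shares of all genes called higher in these comparisons were 0.85%, 1.46% and 9.71%. Cd163l1, which encodes a scavenger receptor of gamma-delta T cells (chr7:140218267-140231145, plus strand), had 132, 138 and 134 CPM in gamma-delta barcodes and 2.94, 7.08 and 12.5 CPM in CD8+ T barcodes. Its log2 fold change was 4.11 (SE 0.37, edgeR adjusted p = 0.000121) and its level was nearly the same in the 3 gamma-delta sums. Tmem176a, which encodes a membrane protein, had 76.2, 95.8 and 91.4 CPM against 2.18, 2.83 and 3.15 CPM (log2 fold change 4.83, SE 0.42, edgeR adjusted p = 2.59e-05). Its neighbour Tmem176b had a log2 fold change of 4.52 (SE 0.45, edgeR adjusted p = 0.000103).

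Receptors and factors of the type 17 list were at low level in the sums. Il23r, the receptor subunit for IL-23, had 15.9, 21.3 and 7.03 CPM, 17 UMIs, against 0 in CD8+ T barcodes, which makes it at least 132-fold higher. Il1r1, the receptor for IL-1, had 22 UMIs against 2, a ratio of 256 with a counting interval of 62.8 to 2242. Both were called higher by edgeR against CD8+ T barcodes, with adjusted p of 0.0084 for Il23r and 0.000386 for Il1r1. Blk, a Src-family kinase of gamma-delta T cells and B cells, had 33.3, 21.3 and 25.8 CPM (log2 fold change 4.85, SE 0.64, edgeR adjusted p = 0.00103). Zbtb16, which encodes the innate lymphocyte factor PLZF, had a log2 fold change of 4.55 (SE 0.65, edgeR adjusted p = 0.00199) on 16 UMIs. Maf, a factor of IL-17-producing cells, had a log2 fold change of 1.83 and did not pass (edgeR adjusted p = 0.19). Against CD8+ T barcodes the calls of Il23r and Zbtb16 were lost without the aged or without the aged-GA library, and that of Il1r1 without the aged-GA library.

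Il17a RNA (chr1:20730905-20734496, plus strand) came from few barcodes. It had 9 UMIs in 6 barcodes of the young library, 0 in the aged library and 42 UMIs in the aged-GA library, from 3 barcodes with 19, 16 and 7 UMIs. These 3 barcodes held 13, 12 and 9 Trdc UMIs, 6, 9 and 3 gamma constant UMIs and 9, 12 and 8 Cd163l1 UMIs, and no Trac UMI. Il17f, the related cytokine, had 6 UMIs, all in the aged-GA library. Over the 3 libraries Il17a was 395 times as abundant as in CD8+ T barcodes (51 against 3 UMIs, counting interval 128 to 1979). Ifng, the cytokine of the type 1 program, had 15.9, 5.32 and 37.5 CPM in gamma-delta barcodes. Because 3 of 79 barcodes carry the Il17a level of the aged-GA library, the difference between the aged libraries rests on those 3 barcodes.

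Other genes outside the lists were also higher against CD8+ T barcodes. Serpinb1a, a protease inhibitor, had 85.7, 47.9 and 21.1 CPM against 2.85, 3.44 and 4.48 CPM (log2 fold change 3.73, SE 0.52, edgeR adjusted p = 0.00148). Ckb, a creatine kinase, had a log2 fold change of 3.56 (SE 0.36, edgeR adjusted p = 0.000121). Among transcription factors 4 of 16 tested were higher and 0 lower, where 0.85% of all genes were called higher and 0.349% lower. Ikzf2, which encodes Helios, had 194, 399 and 171 CPM against 30.2, 35.6 and 28.7 CPM (log2 fold change 2.66, SE 0.41, edgeR adjusted p = 0.00342), and Sox4, a developmental factor of lymphocytes, had a log2 fold change of 2.82 (SE 0.37, edgeR adjusted p = 0.000976). Nr4a1, induced by receptor signaling, and Gata3, a T cell lineage factor, had log2 fold changes of 1.31 and 0.78. Of the memory and effector list 2 of 14 genes were higher, S100a4, a calcium-binding protein of memory cells (log2 fold change 2.58, 762, 650 and 373 CPM), and Ly6c1 (3.30). The call of Gata3 was lost without any 1 of the 3 libraries, that of S100a4 without the aged or without the aged-GA library, those of Ikzf2 and Nr4a1 without the aged library, and that of Sox4 without the aged-GA library.

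Few genes were lower than in CD8+ T barcodes. Dapl1, a gene of naive CD8+ T cells, had 151, 63.9 and 70.3 CPM against 412, 141 and 154 CPM (log2 fold change -1.67, SE 0.27, edgeR adjusted p = 0.00453). It was the 1 of 10 naive genes to pass the test, and the median of the list was -0.21. Ccr7, the lymph node homing receptor, had a log2 fold change of -0.94 and did not pass (edgeR adjusted p = 0.0708), but it passed among the 170 members with 2 or more Trdc UMIs, at -1.15 (edgeR adjusted p = 0.0493). Cd6, a coreceptor of the alpha-beta receptor synapse, had a log2 fold change of -0.96 (SE 0.18, edgeR adjusted p = 0.0141), the only call among 28 genes of receptor signaling. Gzmk, a granzyme of memory CD8+ T cells, had 2 UMIs against 629, 13.5-fold lower with a counting interval of 3.73 to 112. Its level in CD8+ T barcodes was 2.35, 51.2 and 28.8 CPM in the young, aged and aged-GA library, and in gamma-delta barcodes it was 1.59, 0 and 2.34 CPM. Dnajc15, Fam241a and Myc were also lower, at log2 fold changes of -0.97, -1.60 and -1.02. The calls of Gzmk and Myc were lost with the 170 members with 2 or more Trdc UMIs, those of Cd6, Gzmk and Fam241a without the aged or without the aged-GA library, that of Myc without any 1 of the 3 libraries, and that of Dapl1 without the aged-GA library.

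Against CD4+ T barcodes, genes of the type 1 program were higher. Of all genes 1.46% were called higher against CD4+ T, 0.85% against CD8+ T and 9.71% against NK barcodes, and 9.23% lower against NK barcodes. Of 16 type 1 genes 9 were higher (median log2 fold change 2.83), while against CD8+ T barcodes 1 of 16 was (0.46) and against NK barcodes 1 was higher and 12 were lower (-1.91). Of the separate list of 15 NK receptors and adaptors 2 were higher against CD4+ T barcodes, Klrb1c (3.92) and Klre1 (3.76), and 13 did not pass. Ccl5, a chemokine of cytotoxic and memory lymphocytes, had 3297, 6783 and 7402 CPM in gamma-delta barcodes against 326, 1049 and 989 CPM in CD4+ T barcodes (log2 fold change 2.92, SE 0.41, edgeR adjusted p = 0.00124). Klrd1, the CD94 chain of NKG2 receptors, had 144, 256 and 265 CPM against 31.6, 21.7 and 24.2 CPM (log2 fold change 2.95, SE 0.23, edgeR adjusted p = 5.49e-06). Its partners Klrc1 and Klrc2 had log2 fold changes of 4.95 and 4.62. Cd160, a receptor of intraepithelial and memory lymphocytes, was the 1 type 1 gene higher against both T classes, with log2 fold changes of 4.15 against CD4+ (SE 0.26, edgeR adjusted p = 9.1e-07) and 0.84 against CD8+ T barcodes (SE 0.19, edgeR adjusted p = 0.0425), where each omission of a library lost the call. Nkg7, a protein of cytotoxic granules, Il2rb, the beta chain of the IL-2 and IL-15 receptors, and Xcl1, a chemokine, had log2 fold changes of 2.73, 1.81 and 4.97. Ccr9, the receptor for gut homing, and Spry2, an inhibitor of kinase signaling, had log2 fold changes of 3.90 and 5.64. The calls of Il2rb, Klrc1, Klrc2 and Klre1 against CD4+ T barcodes were lost without the aged or without the aged-GA library, those of Ccl5 and Ccr9 without the aged-GA library and that of Xcl1 without the aged library.

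Of 28 receptor signaling genes 3 were lower than in CD4+ T barcodes, Cd5, Cd6 and Cd28 (5 among the 170 members with 2 or more Trdc UMIs). Of 7 tested genes of the checkpoint list (inhibitory receptors and related genes) 2 were lower, Ctla4 and Cd200. Cd40lg, the ligand by which helper T cells activate B cells, had 15.9, 10.6 and 4.69 CPM against 37.3, 50 and 45.3 CPM (log2 fold change -2.02, SE 0.37, edgeR adjusted p = 0.0132). Cd5, an inhibitory receptor of alpha-beta T cells, had a log2 fold change of -1.67 (SE 0.21, edgeR adjusted p = 0.000651), and Cd28, the main costimulatory receptor, -0.82 (SE 0.15, edgeR adjusted p = 0.0089). Ctla4 and Tnfrsf4, which are high in regulatory T cells, had log2 fold changes of -1.83 and -2.36, and Cd6 and Cd200 of -1.35 and -1.65. Igfbp4, a gene of naive CD4+ T cells, had 199.9, 202 and 110.2 CPM against 522, 387 and 318 CPM (log2 fold change -1.38, SE 0.13, edgeR adjusted p = 5.54e-05). Of 14 myeloid markers 4 were lower and 10 did not pass, where 0.632% of all genes were called lower. The 4 were the neutrophil and monocyte genes Lyz2, S100a8, S100a9 and Ngp, at log2 fold changes of -2.80 to -5.76. S100a8 stood at 394, 495 and 911 CPM in CD4+ T barcodes. The calls of these 4 genes and of Cd28, Cd40lg and Ctla4 were lost without the aged or without the aged-GA library, those of Tnfrsf4 and Cd6 without the aged-GA library, that of Cd200 without any 1 of the 3 libraries, and those of Lyz2, S100a8 and S100a9 with doublets left out.

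Against NK barcodes, gamma-delta barcodes had higher levels of naive T cell genes and lower levels of cytotoxic genes. Of all genes 9.71% were called higher and 9.23% lower in this comparison. Of 10 naive genes 9 were higher (median log2 fold change 4.0), with Tcf7, a factor of naive and memory T cells, at 455, 634 and 469 CPM against 45.5, 38.0 and 57.0 CPM (log2 fold change 3.58, SE 0.16, edgeR adjusted p = 4.81e-09). Il7r, the receptor for the survival cytokine IL-7, had a log2 fold change of 4.43 (SE 0.19, edgeR adjusted p = 4.6e-09). Of 8 cytotoxic genes 6 were lower, and Gzma, granzyme A, had a log2 fold change of -6.39 (SE 0.54, edgeR adjusted p = 2.11e-06) and Prf1, perforin, -5.78 (SE 0.47, edgeR adjusted p = 1.62e-06). Of 15 NK receptors and adaptors 13 were lower, among them Tyrobp at -5.23. Cma1, a protease that NK barcodes held at 907 UMIs, had 0 UMIs in gamma-delta barcodes and was at least 145-fold lower. Actn2, an actinin, had 79.3, 53.2 and 39.9 CPM in gamma-delta barcodes and 0 UMIs in NK barcodes, at least 53.4-fold higher. Receptor signaling genes moved both ways, with 14 of 28 higher, such as Lat (2.54), and 5 lower.

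The remaining lists held at most 2 calls each against a T class. Of all genes 0.85% were called higher and 0.349% lower against CD8+, and 1.46% and 0.632% against CD4+ T barcodes. Homing genes had 0 of 13 tested against CD8+ and 2 higher of 13 against CD4+ T barcodes, and cytokine receptors 1 higher of 12 in each. Checkpoint genes had 0 of 7 against CD8+ and 2 lower of 7 against CD4+ T barcodes. None of 14 interferon-stimulated genes or of 11 tested stress genes passed edgeR's test against either T class. Among the 170 members with 2 or more Trdc UMIs Slfn1 was lower than in CD4+ T barcodes (log2 fold change -2.35, edgeR adjusted p = 0.0363), and 3 homing genes were higher and 3 checkpoint genes and 1 cytokine receptor lower. Of 10 cell cycle genes 0 passed against CD8+ and 1 was lower against CD4+ T barcodes, Top2a, a topoisomerase of dividing cells, with 2 UMIs against 304 and a ratio 16.7-fold lower (counting interval 4.58 to 139). Its call was lost without the aged-GA library. Median log2 fold changes of the interferon and stress lists were 0.41 and 0.03 against CD8+ T barcodes.

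The gamma-delta barcodes were not uniform. Each was placed by whether it held more UMIs of type 17 markers or of type 1 markers, both raw and with no weighting. These marker sets are shorter than the lists above. Blk, Cd163l1, Il17a, Il23r and Maf are among the type 17 markers, and Cd27, Ifng, Il2rb, Klrd1 and Nkg7 among the type 1 markers. Type 17 UMIs exceeded type 1 UMIs in 25 members: 15 in the young library (11.6%), 4 in the aged (9.76%) and 6 in the aged-GA library (7.59%). Type 1 UMIs were in excess in 72 (55.8%), 33 (80.5%) and 65 (82.3%), 170 in all, and the other 54 had equal numbers or none. Of the 25 barcodes on the type 17 side 96% had 2 or more Trdc UMIs, against 76.5% of the 170 on the type 1 side and 29.6% of the 54 in neither. The same split put 0.363%, 0.592% and 0.609% of CD8+ T barcodes and 0 NK barcodes on the type 17 side. It put 4.77%, 22% and 20.4% of CD4+ T barcodes and 3.59%, 12.6% and 10.1% of T barcodes without Trdc, Cd4 and CD8 there, so that in both aged libraries these shares were above those of gamma-delta barcodes, with intervals that lie apart for CD4+ T barcodes of the aged-GA library and overlap otherwise. Of B barcodes, where Blk is a B-cell gene, 36.1%, 45.2% and 47.8% fell there, so the split does not by itself mark gamma-delta T cells. The type 1 side held 93.9%, 97.8% and 97.4% of CD8+ T barcodes and 48.0%, 51.1% and 54.3% of CD4+ T barcodes. It held 46.5%, 61.2% and 65.4% of T barcodes without Trdc, Cd4 and CD8. Of NK barcodes 100%, 98.6% and 98.7% fell there, and of B barcodes 3.21%, 5.02% and 7.25%. The type 1 side was thus also common in other T and NK barcodes.

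Genes that the split did not use differed between its sides. Actn2 was found in 84.0% (95% exact binomial interval 63.9 to 95.5) of the type 17 side and 6.47% (3.27 to 11.3) of the type 1 side. Serpinb1a was found in 88.0% (68.8 to 97.5) and 2.35% (0.645 to 5.91), and S100a4 in 92.0% (74.0 to 99.0) and 15.9% (10.7 to 22.3). Ckb was found in 60% (38.7 to 78.9) and 1.76% (0.365 to 5.07), and Cd44, the adhesion receptor of activated and memory T cells, in 68.0% (46.5 to 85.1) and 21.8% (15.8 to 28.7). Of the 10 naive genes 9 were found in a smaller share of the type 17 than of the type 1 side, and Il7r in a larger one. No count over all genes stands beside this, so it describes these 10 genes only. Ccr7 was found in 16.0% (4.54 to 36.1) of the type 17 side and 56.5% (48.7 to 64.0) of the type 1 side, and Lef1, a naive T cell factor, in 32.0% (15 to 53.5) and 72.9% (65.6 to 79.5). Ly6c2, a surface protein of memory cells, was found in 8.00% (0.984 to 26.0) and 45.9% (38.2 to 53.7). The barcodes of a side come from 3 libraries and are not replicates, so these shares are a description.

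The receptor genes also differed between the sides. Trdv4 was found in 64.0% (42.5 to 82.0) of the type 17 side and 2.35% (0.645 to 5.91) of the type 1 side, in 10 of 15, 2 of 4 and 4 of 6 barcodes of the type 17 side in the young, aged and aged-GA library. Tcrg-C1 was found in 88.0% (68.8 to 97.5) and 33.5% (26.5 to 41.2). Tcrg-C2 had 56.0% and 46.5%, Tcrg-C4 60% and 40.6%, and Trgv2 36.0% and 37.6%, with overlapping intervals. Il7r, of the naive list, was frequent on both sides, at 96.0% and 88.2%, and Trac was found in 28.0% and 35.9%. Median depth was 4715 UMIs on the type 17 side and 4405 on the type 1 side in the young, 4287 and 4320 in the aged and 5084 and 5319 in the aged-GA library.

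**Figure D4:**
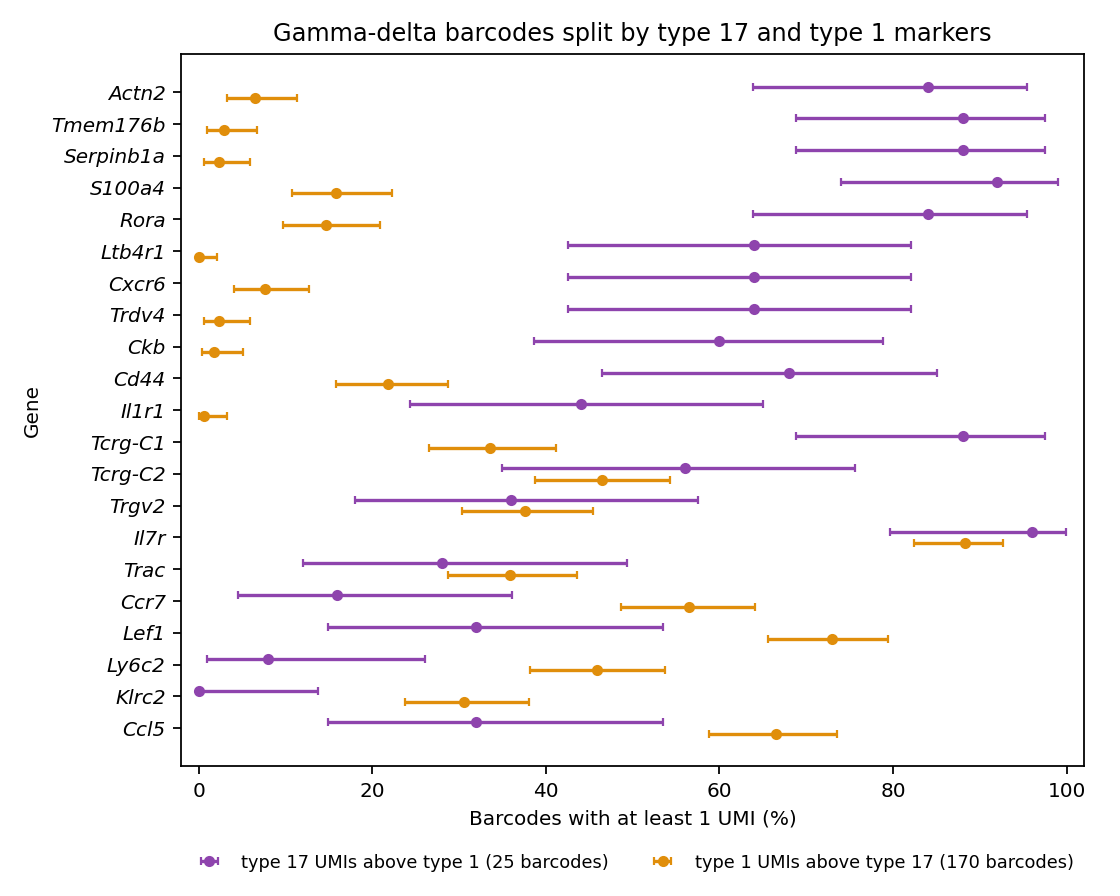
Share (%) of gamma-delta barcodes with at least 1 UMI of each gene, for the 25 barcodes with more type 17 than type 1 UMIs and the 170 with more type 1 than type 17 UMIs, pooled over the 3 libraries, with 95% exact binomial intervals. The markers that made the split are not shown. Tmem176b, Rora, Ltb4r1, Cxcr6, Il1r1, Klrc2 and Ccl5 belong to the longer type 17 and type 1 lists but were not used for it. Among genes outside those lists Actn2 (84.0% against 6.47%) and Trdv4 (64.0% against 2.35%) lie on the type 17 side and Ccr7 (16.0% against 56.5%) on the type 1 side.

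The same marker sets were counted with every barcode thinned to 2000 UMIs. At least 2 UMIs of the type 17 markers were found in 10.9%, 17.1% and 8.86% of the young, aged and aged-GA gamma-delta barcodes, and before thinning in 14.7%, 24.4% and 10.1%. In CD4+ T barcodes these shares were 1.12%, 13.0% and 12.6% thinned and 3.05%, 28.6% and 26.9% before thinning, and in CD8+ T barcodes 0.104%, 2.51% and 1.34% thinned. Type 17 UMIs were thus more frequent in gamma-delta than in CD4+ T barcodes of the young library, while in the aged and aged-GA libraries the intervals of both classes overlapped after thinning. At least 2 UMIs of the type 1 markers were found in 38.0%, 65.9% and 65.8% of gamma-delta barcodes, and before thinning in 53.5%, 75.6% and 84.8%. Among members with 2 or more Trdc UMIs the thinned type 1 shares were 56.8%, 71.9% and 67.2%, which are closer together. In CD8+ T barcodes the thinned type 1 shares were 49.5%, 77.9% and 73.3%, in the same order.

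Between the aged and the young library the levels in gamma-delta barcodes were set side by side, with 1 library each and no test. Ratios are log2 values of CPM after adding 10 CPM to both and are given where a gene reached 30 UMIs in the 2 sums together. Of 3290 such genes 208 (6.32%) were more than 2-fold higher and 79 (2.4%) more than 2-fold lower in the aged library, and the median ratio was 0.19. With mitochondrial, haemoglobin, immunoglobulin and ribosomal protein genes taken out of the denominator, the median was 0.03, and 145 genes were higher and 130 lower. Among the 170 members with 2 or more Trdc UMIs 95 genes were higher and 81 lower. Of the 16 type 1 genes 10 had enough UMIs. Over all 3290 genes 2088 ratios were above 0, or 1717 with the other denominator. All 10 type 1 ratios were above 0 under both denominators, 5 of them past 2-fold (3 with the other denominator), with a median of 0.98 (0.84). Nkg7 had 360.2 CPM (95% Poisson interval 315 to 410.2) in the young and 1049 CPM (907 to 1206) in the aged library, a log2 ratio of 1.52, and 919 CPM (830.1 to 1014) in the aged-GA library. Ccl5 had 3297 CPM (3157 to 3442) in the young and 6783 CPM (6416 to 7166) in the aged library, a ratio of 1.04. Klrc2 had 38.1 CPM (24.4 to 56.7) in the young and 117 CPM (73.4 to 177) in the aged library, a ratio of 1.40.

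The median type 1 ratio was smaller where the members were chosen more strictly. Among members with 2 or more Trdc UMIs the median ratio of the 10 genes was 0.50, and Ccl5 had a ratio of 0.31. Without members rich in myeloid UMIs, described below, the median was 0.61 and Ccl5 had 0.34. In CD8+ T barcodes of the same libraries the median of the same genes was 1.58, and Ccl5 had 3.32. The aged-GA library stood near the aged one, with a median ratio of 0.13 over 13 type 1 genes and none past 2-fold.

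**Figure D5:**
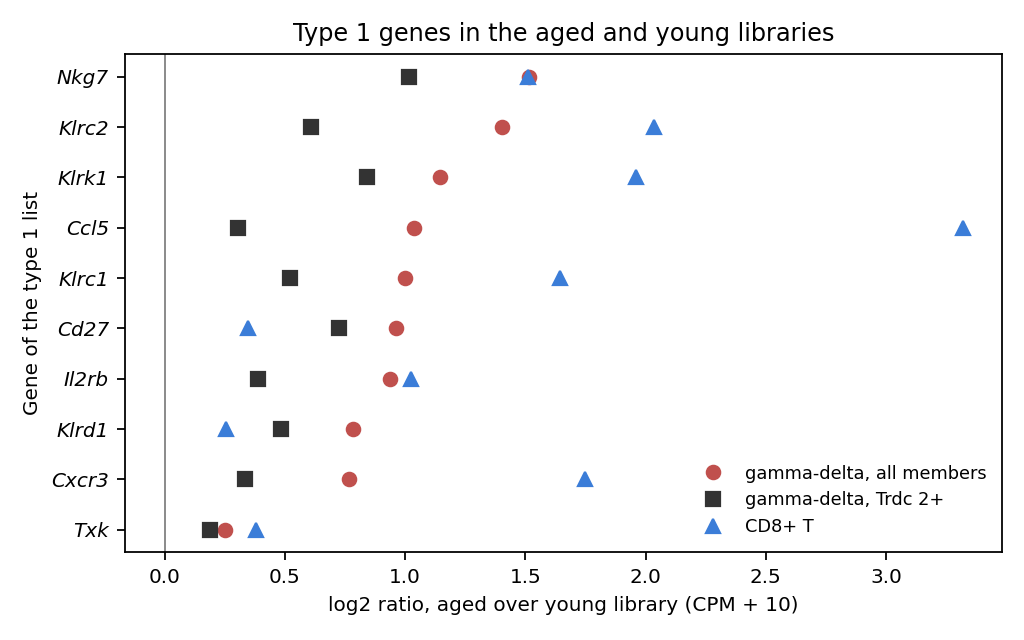
log2 ratio of the aged over the young library (CPM + 10) for the 10 type 1 genes with at least 30 UMIs, in all gamma-delta barcodes, in those with 2 or more Trdc UMIs and in CD8+ T barcodes, with 1 library per group. All gamma-delta ratios lie above 0, Nkg7 is highest at 1.52, and the points of the stricter members lie nearer to 0.

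Other genes differed between the young and aged gamma-delta sums. Ikzf2 had 194 CPM (161 to 231) in the young, 399 CPM (314 to 500.5) in the aged and 171 CPM (134 to 215) in the aged-GA library, ratios of 1.01 and -1.18, and in CD8+ T barcodes its ratios were 0.18 and -0.24. Nr4a1 had 58.7 (41.3 to 80.9), 202 (143 to 278) and 49.2 CPM (30.5 to 75.2), ratios of 1.63 and -1.84, and in CD8+ T barcodes 1.03 and -0.64. For both genes the aged library was the high one and the intervals of the young and aged-GA libraries overlapped. Id3, a factor that restrains E proteins, had 197, 144 and 49.2 CPM, with the aged-GA library apart from both others (30.5 to 75.2 against 94.7 to 209 in the aged library). Tox, a factor of T cell development, had 68.2 CPM (49.4 to 91.9) in the young and 16.0 CPM (3.29 to 46.7) in the aged library, the latter from 3 UMIs. Ltb4r1, a leukotriene receptor of the type 17 list, had 82.5 CPM (61.6 to 108) in the young and 16.0 CPM (3.29 to 46.7) in the aged library, also from 3 UMIs.

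Naive and receptor genes moved in both directions between these libraries. Trac had 332 CPM (288 to 380) in the young and 149 CPM (99.1 to 215) in the aged library, a ratio of -1.10, where Trac in CD8+ T barcodes had -0.04. Dapl1 had a ratio of -1.12 and Ccr7 of -0.74, while Tcf7 had 0.47 (455 and 634 CPM). Of the 10 naive genes 4 had a ratio above 0 and 6 below (3 and 7 with the other denominator), and their median was -0.26, or -0.04 among members with 2 or more Trdc UMIs. Tcrg-C4 had 88.9 and 149 CPM (ratio 0.69) and Tcrg-C1 165 and 133 CPM (-0.29). The 5 counted gamma-delta receptor genes, 3 of them above 0 (2 with the other denominator), had a median of 0.03 and the 7 counted type 17 genes of 0.01, both of which turned below 0 with the other denominator (-0.14 and -0.16). Ltb4r1 was the 1 of these 7 past 2-fold lower. Txnip, an inhibitor of thioredoxin, had 1552 and 543 CPM (ratio -1.50), Tsc22d3, a glucocorticoid-induced gene, a ratio of -1.21, and Selenop, a selenium carrier, -1.79. AY036118, a gene of unknown function to which ribosomal RNA reads often map, had a ratio of -2.15 in gamma-delta barcodes, and its ratios in CD8+ T, CD4+ T, NK and B barcodes were -2.15, -2.18, -2.12 and -2.08.

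Between the aged-GA and the aged library 32 of 2790 genes (1.15%) were more than 2-fold higher and 85 (3.05%) more than 2-fold lower in gamma-delta barcodes, with a median ratio of -0.11. With the other denominator the median was 0.01, and 57 genes were higher and 58 lower. Over all 2790 genes 1687 had a ratio below 0, or 1352 with the other denominator. Of 12 transcription factors 10 had a ratio below 0 (9 with the other denominator) and 4 of them were past 2-fold (3), Ikzf2, Ikzf3, Nr4a1 and Id3, with a median of -0.45. Ikzf3, which encodes Aiolos, had 49.2, 170 and 75 CPM in the young, aged and aged-GA library. Of 7 interferon-stimulated genes 5 had a ratio below 0, with a median of -0.76, and Slfn5 had -1.46, while Slfn1 had 1.18. In CD8+ T barcodes the median of those 7 genes was -0.35. Jun, a stress-induced factor, had 224 and 436 CPM (ratio 0.93), Ccr7 181 and 342 CPM (0.88) and Cd69, an early activation and retention marker, 277 and 476 CPM (0.76). Kcnq1ot1, a long noncoding RNA, had 47.9 and 136 CPM (1.33), the largest ratio upward after Il17a among the genes named.

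Genes of other cell types moved with the aged library. The 14 myeloid markers summed to 227 CPM in the young, 2215 CPM in the aged and 595 CPM in the aged-GA gamma-delta barcodes, with Cst3 the most abundant in each and Csf3r and Ngp at 0 in the young and aged libraries. Fcer1g and Tyrobp of these markers are also on the list of NK receptors and adaptors. In NK barcodes the 14 markers summed to 6517, 12568 and 11127 CPM, with Fcer1g the most abundant. UMIs of these markers, called myeloid UMIs here, thus do not by themselves separate myeloid from NK-cell RNA. In the aged library 1 gamma-delta barcode held 169 of 416 myeloid UMIs and another 99, and the 3 richest barcodes held 70.2% together. Gzma in the aged library came to 100 of 109 UMIs from 1 barcode. The 12 B-cell markers summed to 214, 1161 and 647 CPM, where Cd74 led in the aged library with 65 of 78 UMIs in 1 barcode, and Ms4a1, a defining B-cell gene, was at 0 there. Erythroid and platelet markers summed to 977, 5931 and 5356 CPM, led by Hbb-bs, and the platelet genes Pf4 and Ppbp were at 0 in the young and aged libraries. The 10 genes of NK cells and innate lymphoid cells summed to 233, 820 and 298 CPM, led by Gzma in the young and aged libraries.

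The 10 genes with the largest ratio upward in the aged library included Ifitm3 (4.68) and Lyz2 (4.0), of the myeloid markers. Tyrobp (3.97), on both the myeloid and the NK receptor and adaptor list, was another. Cd74 (3.87), of the B-cell markers, was also among them. Without members holding 20 or more myeloid UMIs, an alternative added after the data were seen, Ifitm3 had a ratio of 1.75, Tyrobp 1.47 and Cd74 1.62, while Gzma went from 2.38 to -2.28 and Fcer1g from 3.07 to -0.49. The counts were then 169 genes higher and 90 lower for aged over young, and 44 higher and 55 lower for aged-GA over aged. Nr4a1 (1.60 and -1.83) and Ikzf2 (1.32 and -1.43) had ratios as large without those members. Lyz2 was found in 0.775%, 36.6% and 15.2% of gamma-delta barcodes and in 0.675%, 40.4% and 17.7% of CD8+ T barcodes of the same libraries. S100a9 was found in 2.33%, 31.7% and 31.6% of gamma-delta and 1.19%, 38.2% and 32.5% of CD8+ T barcodes, so that the shares followed the library more than the class. The part of RNA from other cells in the ratios was not tested. Among the members 2, 1 and 1 were marked as doublets, and without doublets 203 genes were higher and 82 lower for aged over young.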

How the data were processed

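The authors deposited raw UMI counts per gene and barcode for each library, not normalized. Cell Ranger 5.0.0 is given per the file headers (the study's methods differ on the version), and mm10 in the submitters' processing notes. Barcodes were kept and classed by raw UMIs as the report states. UMIs were summed per class and library and tested with edgeR 4.0.16 (R 4.3.3) across 12 sums, with TMM scaling, the default filter on low counts and the library as a block, and an adjusted p under 0.05 was called. The fit was tested on simulated data. DESeq2 1.42.0, RLE scaling, no filter, no block, each library left out, doublets left out and other limits on Trdc were alternatives. Levels between libraries are CPM with 95% exact Poisson intervals.

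Scrublet (scanpy 1.11.5) at its automatic cutoff marked 0.0277% of aged-GA barcodes and had not worked, so the top 5% by score in each library were taken as doublets, a choice made after that was seen. Named genes are those of the rule and the lists. They also include, per class contrast, the 10 largest called changes each way with at least 50 CPM in a class and 1 direction in all 3 libraries, and per library comparison the 10 largest ratios each way with at least 30 UMIs and 100 CPM in 1 library. Mitochondrial, haemoglobin, ribosomal protein, immunoglobulin and receptor segment genes, gene models and rule genes were left out of the largest. The 8 gamma and delta variable segments given by their UMIs alone were added after their values were seen. Members and lists were chosen with earlier results of these data known. Sequences and positions come from GRCm38 with GENCODE vM21. A few genes are not reported here.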

Additional observations from a re-analysis of the deposited data

How the results depend on the processing

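No paired analysis between groups was possible because each group has 1 library, and p-values measure the spread among 3 libraries of different groups. Depth limits the aged library most, with 41 members. Calls in the class contrasts moved with the tool and the filter. DESeq2 called 141 genes higher and 101 lower than CD8+ T barcodes and 211 higher than CD4+ T barcodes. Without the filter on low counts 219 were higher and 282 lower than CD8+, and 266 higher and 275 lower than CD4+ T barcodes. Without the library as replicate block 39 were higher and 7 lower than CD8+, 72 and 11 against CD4+ T barcodes and 496 lower than NK barcodes. Leaving out 1 library at a time gave 25 to 88 genes higher and 1 to 74 lower than CD8+, 29 to 174 higher and 5 to 173 lower than CD4+ T barcodes, and 482 to 661 higher and 329 to 649 lower than NK barcodes, the lowest each time without the aged-GA library.

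Members with 2 or more Trdc UMIs gave 127 genes lower than CD4+ T barcodes and 95 genes higher in the aged than the young library, and shares of 0.886% of all and 1.40% of CD3 barcodes in the young library. With a gamma constant UMI required, the shares were 0.718%, 0.285% and 0.544% of all and 1.14%, 1.21% and 1.72% of CD3 barcodes. Members with exactly 1 Trdc UMI, an alternative added after the data were seen, gave 3 genes higher and 12 lower than CD8+ T barcodes, 451 higher than NK barcodes, and by edgeR 0 higher and 0 lower than CD4+ T barcodes, where 736 genes had an unadjusted p under 0.05. DESeq2 was not run on these members. Among them the log2 fold change against CD8+ T barcodes was -1.21 for Cd160, -1.65 for Cxcr6, -6.07 for Ltb4r1, -0.52 for Rora, -0.37 for S100a4, -0.82 for Trdv4, -3.72 for Zbtb16 and 0.14 for Kif1b. Against CD4+ T barcodes it was -6.47 for Ccr9, -1.04 for Cxcr6, -8.16 for Ltb4r1, -0.47 for Tmem176a, -0.11 for Tmem176b, -2.43 for Trdv4 and -4.27 for Zbtb16. Against NK barcodes it was -0.25 for Ccr9, -6.69 for Ltb4r1, -0.67 for Rora, -1.42 for S100a4 and -0.0091 for Tmem176a. The signs are opposite to those of all 249 members. These 79 members held 0 UMIs of Ltb4r1, Trdv4, Zbtb16 and Ccr9, so for those 4 genes the fitted values depend on the prior count and are neither sizes nor bounds, and no direction can be read for Trdv4 or, against NK barcodes, which also held 0, for Ccr9. For the other genes the cause was not tested.

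Between libraries, with no minimum of UMIs, 1013 genes were past 2-fold higher and 310 lower for aged over young, and 346 and 707 for aged-GA over aged. With the other denominator 130 were lower for aged over young and 57 higher for aged-GA over aged. Without members rich in myeloid UMIs 55 were lower for aged-GA over aged, and the ratio of aged over young was -0.49 for Fcer1g and -2.28 for Gzma, and that of aged-GA over aged 0.57 for Gzma, 0.46 for Ms4a6c, 0.26 for Ifi30 and 0.48 for Cd74, each opposite in sign to all members. For the genes named among the largest ratios, no direction changed with a pseudocount of 1 CPM, the other denominator, no doublets or no minimum.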
